A study of Mus musculus with 2 samples.

Results

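The heat shock genes Hspb1, Hspa1a, Hspa1b, Hsp90aa1, Hspa8 and Dnajb1 were followed through the annotated cell types of mouse gut stroma. They were chosen by name, and all 6 were listed among the 16381 genes of the colon table and the 18262 genes of the small intestine table. Live stroma of healthy mice, with no treatment, was sequenced cell by cell in droplets, as 1 colon library and 1 small intestine library. Both tissues had their epithelium stripped with EDTA and DTT and were then digested with collagenase XI and dispase II, for 60 minutes (colon) or 45 minutes (small intestine). Cells positive for CD45 or CD326 (EpCAM) and dead cells were sorted out before loading on the 10x Genomics 3' version 3.1 kit. The labels give neither the number nor the sex, age or strain of the animals, and no genetic alteration is named. No value therefore has a biological replicate, and tissue, digestion time and animals cannot be told apart in any comparison of the libraries.

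The colon library held 6018 cells with a median of 6598 UMIs (captured RNA molecules), and the small intestine library held 9359 cells with a median of 5943. The libraries shared 21 cell barcodes. Among the authors' cell type labels, 6 types reached 50 cells in both tissues. They were the CD81-negative fibroblasts (CD81- FBs, 3631 colon and 2823 small intestine cells), the CD81-positive fibroblasts called trophocytes (875 and 1913), the Pdgfra-high subepithelial myofibroblasts (SEMFs, 1105 and 1109), the lymphatic endothelial cells (LECs, 217 and 2498), the blood endothelial cells (BECs, 53 and 524) and the smooth muscle cells (SMCs, 125 and 468). Marker genes followed most labels: the 6 smooth muscle markers were all highest in SMCs of both libraries, and 9 (colon) and 8 (small intestine) of 10 SEMF markers were highest in SEMFs. Of 6 lymphatic markers 6 and 5 were highest in LECs, and of 7 blood endothelial markers 7 and 5 in BECs. Trophocytes were less clear: 4 of their 7 markers were highest in them in each library, 2 in LECs and 1 in BECs. Of 5 CD81- FB markers, 4 and 3 were highest in CD81- FBs. In the small intestine, the SMC label also held CD81- FB markers at a summed 9728 CPM (UMIs of a gene scaled to 1000000 UMIs of the type), against 9370.5 in the CD81- FBs themselves, and 4 of 6 pericyte markers were highest in SEMFs (summed 1261 CPM, against 221 in colon SEMFs). In the small intestine none of the cells of the 6 types carried UMIs of Xist without a Y-linked UMI, whereas in the colon 520 SEMFs carried Xist alone and 323 carried Y-linked UMIs alone, so colon cells of both sexes were compared with a small intestine library that showed no such Xist cells.

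Heat shock proteins are chaperones that bind unfolded proteins. The small heat shock protein Hspb1 (HSP25 in the mouse, HSP27 in humans) holds unfolding proteins without ATP, binds actin, and is known to be abundant in muscle and endothelium even without stress. Hspa1a and Hspa1b encode the inducible HSP70, Hspa8 the constitutive HSC70 of every cell, Dnajb1 an HSP40 co-chaperone that hands clients to HSP70, and Hsp90aa1 the inducible form of cytosolic HSP90. Stress activates the transcription factor HSF1, which binds heat shock elements, arrays of inverted GAA units in front of its target genes. These genes, with the immediate early genes such as Fos and Egr1, are also widely known to be induced while tissue is taken apart with enzymes.

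The bases in front of the start sites are shown because heat shock elements there are known to tie stress-inducible members to HSF1. Of the 6 members, 4 matched RefSeq's promoter table (GRCm38.p6), which has windows for Hspb1, Hspa1a, Hspa1b and Dnajb1. The motif searched was the alternation, without a gap, of the unit NGAAN and its reverse complement NTTCN, on both strands, in the 250 bases before the start. Capitals mark 2 such units in a row, and the windows lie at chr5:135887669-135887918 (plus strand, Hspb1), chr17:34972157-34972406 (minus strand, Hspa1a) and chr17:34959239-34959488 (minus strand, Hspa1b).
Hspb1: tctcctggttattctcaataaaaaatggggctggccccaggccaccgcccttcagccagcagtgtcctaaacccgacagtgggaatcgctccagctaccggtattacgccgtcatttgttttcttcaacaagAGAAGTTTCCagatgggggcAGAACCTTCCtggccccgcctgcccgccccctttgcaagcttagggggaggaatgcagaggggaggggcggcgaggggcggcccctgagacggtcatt
Hspa1a: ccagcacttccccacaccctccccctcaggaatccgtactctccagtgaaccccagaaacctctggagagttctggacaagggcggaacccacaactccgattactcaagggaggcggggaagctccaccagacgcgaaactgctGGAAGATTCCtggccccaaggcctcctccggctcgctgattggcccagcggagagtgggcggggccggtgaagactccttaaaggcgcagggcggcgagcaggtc
Hspa1b: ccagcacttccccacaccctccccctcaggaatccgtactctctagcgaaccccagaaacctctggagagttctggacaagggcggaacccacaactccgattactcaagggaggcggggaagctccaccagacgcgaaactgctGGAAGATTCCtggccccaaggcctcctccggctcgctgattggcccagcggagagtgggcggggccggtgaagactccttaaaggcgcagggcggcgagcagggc

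The Hspb1 window held 2 pairs of units, from base -118 to -109 and from -98 to -89 counted from the start. The Hspa1a and Hspa1b windows differed at 3 of 250 bases and each held 1 pair, from -105 to -96. No match with 2 units was found in either Dnajb1 window (chromosome 8). A pair of units was present in 12.7% of all 32851 windows of the table, and 3 units in a row, found in none of the 4 matched members, in 0.46%. A match describes the letters and does not show binding.

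In GENCODE vM21 (GRCm38), Hspb1 spans chr5:135887919-135889563 with 3 exons, and Dnajb1 spans chr8:83608193-83612653 with 3 exons. Hspa8 spans chr9:40800984-40810087 and Hsp90aa1 spans chr12:110690605-110702728 on the minus strand. Hspa1b (chr17:34956436-34959238) and Hspa1a (chr17:34969190-34972156) are intronless neighbours 9951 bases apart. Their transcripts share a longest identical run of 638 bases, and 58.8% of the 50-base windows of Hspa1a also occur in Hspa1b. Within the last 500 bases, from which a 3' kit draws most reads, none of the 50-base windows is shared. How the authors' counting treated reads matching both genes is not given in the sources used here, so the split between Hspa1a and Hspa1b is uncertain.

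Hspb1 had the widest span of levels between types of the 6 members in both libraries. In the colon it stood at 2529 CPM (95% Poisson interval 2343 to 2726) in BECs, 1374 in SMCs, 617 in SEMFs, 579 in trophocytes, 562 in LECs and 164 in CD81- FBs. In the small intestine it stood at 2502 CPM (2436 to 2569) in BECs, 1519 in LECs, 472 in SMCs, 255 in trophocytes, 41.7 in CD81- FBs and 30.7 in SEMFs. BECs were highest in both libraries, and CD81- FBs and SEMFs of the small intestine had the lowest levels. Only trophocytes and LECs of the colon were neighbours with overlapping counting intervals. The highest type was 15.4-fold above the lowest in the colon and 81.6-fold in the small intestine. Over all genes with at least 50 CPM in some type the median span was 2.77-fold in the colon and 2.64-fold in the small intestine, and 82.1% and 88.3% of them spanned less than Hspb1. These intervals cover counting error only.

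BECs exceeded the next type by 1.84-fold in the colon (SMCs) and by 1.65-fold in the small intestine (LECs). Of the 6 members, 0 were at least 2-fold higher in 1 type than in the next in the colon and 0 in the small intestine, while 19.1% of genes met that rule in the colon and 18.3% in the small intestine. The colon count rested on the averaging and the cells used: Hspb1 in BECs passed 2-fold, with 1.12 on the log2 scale by the mean of each cell's CPM, 1.19 without the 6% of cells with the most UMIs, 1.25 with cells of Y-linked UMIs alone and 1.03 with cells of Xist alone.

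The share of cells with an Hspb1 UMI was also highest in BECs of both libraries, and stood at 34.3% in colon CD81- FBs and 11.1% in those of the small intestine. It was 92.5% of colon BECs (Clopper-Pearson 95% interval 81.8 to 97.9) and 94.5% of small intestine BECs (92.1 to 96.3). In SEMFs the share was 71.1% in the colon (68.4 to 73.8) and 12.5% in the small intestine (10.6 to 14.6). With each cell thinned to 2000 UMIs the SEMF shares were 45.3% and 4.91%, and the CD81- FB shares 18.7% and 5.20%. Single cells varied widely: the median colon SEMF had 246 CPM of Hspb1 and the cell at the 90th percentile 1582, and the median small intestine BEC had 1911 CPM and the 90th percentile 5906.

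Free RNA in the droplets was gauged from genes that a type should lack, since no stromal type is known to lack Hspb1. In small intestine SEMFs, 12 endothelial markers stood at 1.51% of their level in the whole library, and Hspb1 at that percentage would be 7.47 CPM, 4.11-fold below the 30.7 CPM measured. In colon BECs, 5 fibroblast genes stood at 24.6% of their library level, and Hspb1 at that percentage would be 89.0 CPM against 2529 measured. In colon SEMFs the same reckoning with endothelial markers gave 15.9 CPM against 617. All 3 measured levels were above these values.

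**Figure D1:**
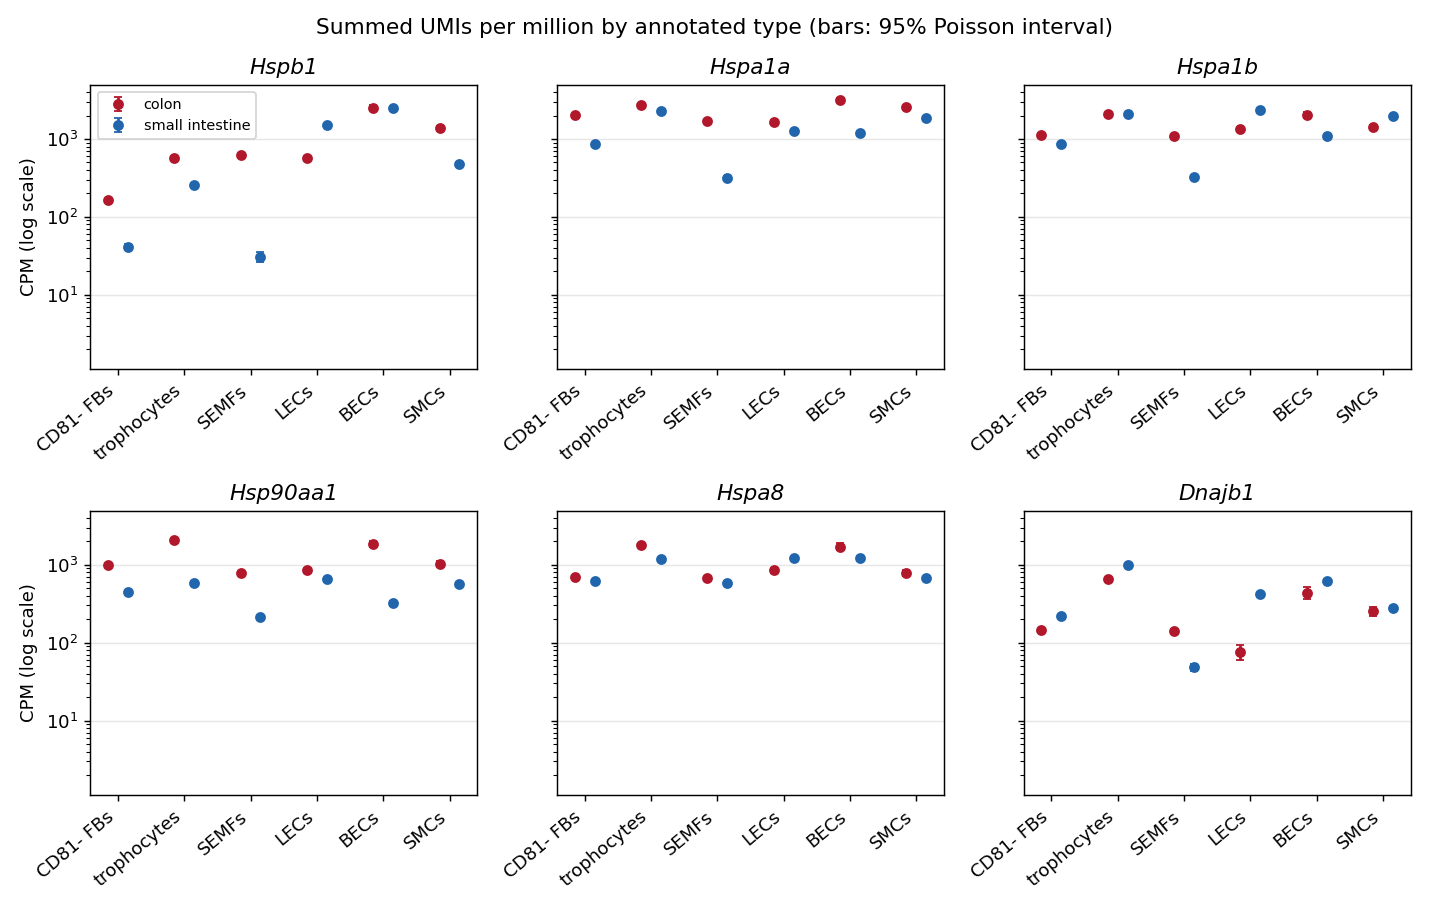
Level of each heat shock gene (CPM, log scale) in the 6 annotated types of the colon (red) and small intestine (blue), with 95% Poisson intervals for counting error. Hspb1 runs from 30.7 CPM in small intestine SEMFs to 2529 in colon BECs, whereas Hspa8 stays between 577 and 1809 CPM.

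The inducible HSP70 genes were spread over all types. In the colon Hspa1a stood at 3152 CPM in BECs, 2693 in trophocytes, 2561 in SMCs, 2028 in CD81- FBs, 1714 in SEMFs and 1669.8 in LECs, a span of 1.89-fold. In the small intestine it stood at 2278 CPM in trophocytes, 1839 in SMCs, 1251 in LECs, 1192 in BECs, 858 in CD81- FBs and 318 in SEMFs, a span of 7.17-fold. SEMFs of the small intestine were the low type, and Hspa1a was seen in 44.5% of them against 91.9% of colon SEMFs (28.0% and 78.8% after thinning). Hspa1b was highest in trophocytes (2077 CPM) and BECs (2021) of the colon, whose intervals overlapped, and in LECs of the small intestine (2359). It was lowest in SEMFs of both libraries, at 1105 CPM in the colon, where CD81- FBs overlapped with them, and 321 in the small intestine.

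Dnajb1, the HSP40 co-chaperone, was a trophocyte-led gene in both libraries. It stood at 659.9 CPM in trophocytes of the colon, 438 in BECs, 251 in SMCs, 144 in CD81- FBs, 142 in SEMFs and 75.1 in LECs. In the small intestine it stood at 1001 CPM in trophocytes, 618 in BECs, 417 in LECs, 279 in SMCs, 217 in CD81- FBs and 48.1 in SEMFs. Trophocytes exceeded BECs, the next type, by 1.51-fold and 1.62-fold. The rank of LECs differed between the libraries: they were last in the colon and the third highest type in the small intestine.

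Hsp90aa1 was highest in colon trophocytes (2078 CPM) and colon BECs (1873), with overlapping intervals, and lowest in the colon in SEMFs (792). In the small intestine it ranged from 654 CPM in LECs to 211 in SEMFs, with trophocytes (591) and SMCs (569) overlapping. Hspa8, the constitutive HSC70, had the narrowest span of the members in the small intestine, 2.14-fold, from 1233 CPM in BECs and 1224 in LECs to 577 in SEMFs. In the colon it ran from 1809 CPM in trophocytes to 678 in SEMFs, whose interval overlapped with that of CD81- FBs, a span of 2.67-fold. Hspa8 was seen in most cells of every type, with a UMI in 84.9% to 97.8% of colon cells and in 91.4% to 98.4% of small intestine cells. SEMFs of the small intestine were the lowest type of that library for every one of the 6 members. The share of all genes that were lowest in these SEMFs is not given here, so the count is not read as particular to heat shock genes.

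Across tissues, 26 of the 36 ratios (6 members in 6 types) were higher in the colon, and 13 were higher there by at least 1 on the log2 scale. In SEMFs 5 members passed that size, as did 5.36% of all genes with at least 100 UMIs there. In CD81- FBs 3 members passed it (background 6.46%), and in trophocytes 2 (4.23%). In BECs 2 members passed it (3.1%), in SMCs 1 (3.37%) and in LECs 0 (3.45%). In LECs, 2 members were higher in the small intestine by that size, as were 15.4% of genes. The median of all genes lay between -0.11 and -0.33 by type, slightly towards the small intestine.

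SEMFs carried the largest ratios in favour of the colon for Hspb1, Hspa1a, Hspa1b and Dnajb1. Hspb1 stood at 617 CPM in colon SEMFs and at 30.7 in small intestine SEMFs, so the colon was higher by 4.33 on the log2 scale (95% interval 4.13 to 4.54), or 20.1-fold. With only the colon SEMFs of Y-linked UMIs the ratio was 4.10, and with only those of Xist UMIs 4.54. Hspa1a was higher by 2.43 (2.36 to 2.50), Hsp90aa1 by 1.91 (1.83 to 2.00), Hspa1b by 1.78 (1.71 to 1.85) and Dnajb1 by 1.56 (1.37 to 1.74). Hspa8 was at 0.23 (0.17 to 0.29). In the SEMFs without a UMI of Hspa1a, Hspa1b or Dnajb1, Hsp90aa1 was at 0.61 (0.13 to 1.05) and Hspa8 at -0.66 (-1.05 to -0.29). Of 8 immune markers 6 had UMIs in small intestine SEMFs, at a summed 398 CPM, and the 7 listed in the colon table summed to 17.2 CPM in colon SEMFs, beside the pericyte markers above, and their part in the SEMF ratios was not tested.

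The other fibroblasts and SMCs leaned the same way for Hspb1. Its log2 ratio was 1.98 (1.87 to 2.08) in CD81- FBs, 1.54 (1.42 to 1.66) in SMCs and 1.18 (1.12 to 1.25) in trophocytes. In SMCs the ratio was 1.47 without the cells richest in the fibroblast gene Dcn and 2.11 without the 10% of cells with the highest mitochondrial share. The part of the fibroblast markers found under the small intestine SMC label was not tested further. Hspa1a passed 1 in CD81- FBs (1.24), and Hsp90aa1 in CD81- FBs (1.14) and trophocytes (1.81). In cells without a UMI of Hspa1a, Hspa1b or Dnajb1, Hsp90aa1 was at 0.53 (0.26 to 0.80) in CD81- FBs and 0.14 (-0.63 to 0.91) in trophocytes, under 1 in both. Hspa1b and Dnajb1 passed it in neither: in trophocytes Hspa1b was at -0.02 (-0.05 to 0.01) and Dnajb1 at -0.60 (-0.65 to -0.55).

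The endothelial types gave other values. In BECs, Hspb1 was at 0.02 (-0.10 to 0.13), with 2529 CPM in 53 colon cells and 2502 CPM in 524 small intestine cells. In the same BECs Hsp90aa1 was at 2.54 (2.38 to 2.71) and Hspa1a at 1.40 (1.29 to 1.52). In LECs, Hspb1 was at -1.43 (-1.55 to -1.32), 2.70-fold higher in the small intestine, and Dnajb1 at -2.47 (-2.81 to -2.16), with 75.1 CPM from 80 UMIs against 417. Hspa1a and Hsp90aa1 were the 2 members higher in colon LECs, at 0.42 and 0.37, but with only the colon LECs of Y-linked UMIs they were at -0.57 and -0.63. The change of sign between types was not tested.

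The LEC ratios rested on 217 colon cells that were not uniform. Colon LECs with only Xist UMIs (98 cells) had 753 CPM of Hspb1, and those with only Y-linked UMIs (53 cells) had 209, a log2 difference of 1.85 (1.43 to 2.30). Hspa1a differed the same way in these LECs, 2339 against 845 CPM, and so did Hspa1b, 1859 against 708. In the other 5 types the same split moved Hspb1 by -0.28 to 0.52. The LEC ratio to the small intestine was -1.01 with the Xist cells alone and -2.86 with the Y-linked cells alone, and that of Dnajb1 was -2.17 and -3.11. Whether the sets are single animals is not given in the labels.

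**Figure D2:**
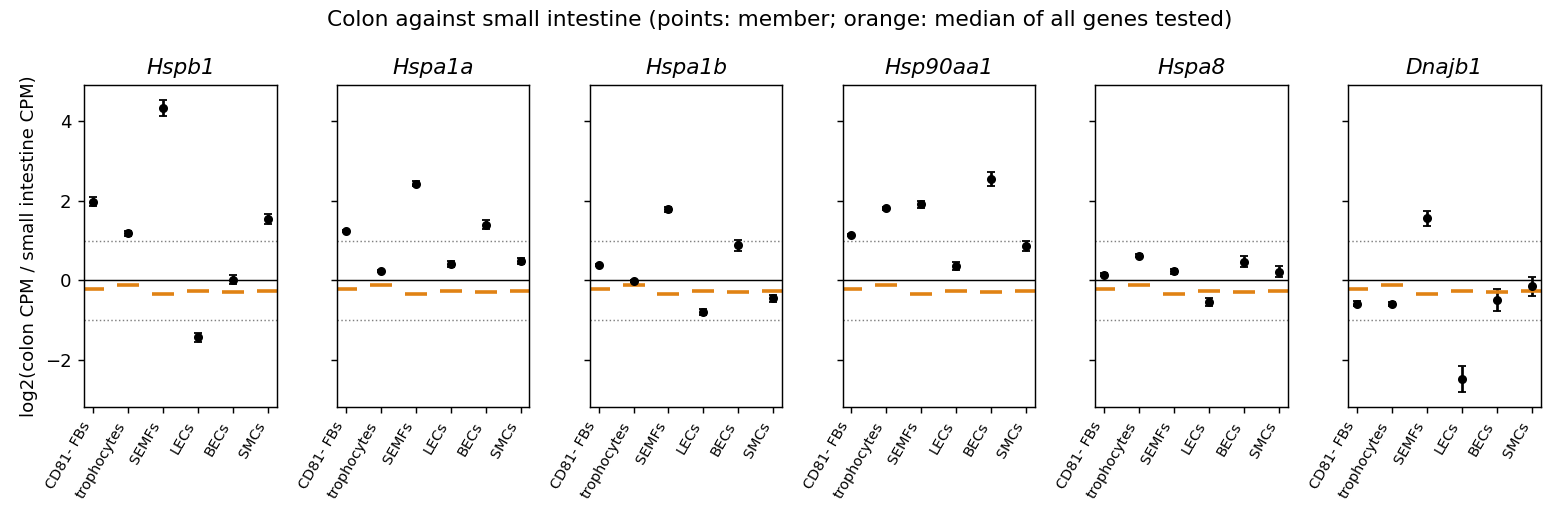
Log2 ratio of colon to small intestine CPM for each heat shock gene in the 6 annotated types, with exact conditional 95% intervals for counting error; dotted lines mark 1 and -1, and orange dashes the median of all genes tested in the type. Hspb1 reaches 4.33 in SEMFs and -1.43 in LECs, while Hspa8 stays between -0.54 and 0.62.

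Within a type, the inducible members varied together from cell to cell to a degree that differed between pairs and sets. Pearson's r of the log-normalized values was computed in the 12 sets of cells given by 6 types and 2 libraries. It is a description, since cells of a library share their handling and depth. Hspa1a and Hspa1b had a median r of 0.65 over the 12 sets (0.56 to 0.77). Hspa1a reached a median of 0.41 with Hsp90aa1 (0.18 to 0.68) and 0.36 with Dnajb1 (0.09 to 0.51). Hspa8 was less tied to them, at 0.32 with Hspa1a (0.06 to 0.47). In small intestine BECs, Dnajb1 had an r of only 0.09 with Hspa1a, 0.11 with Hspa1b and 0.02 with Hsp90aa1.

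Hspb1 followed the other members less closely. Its median r was 0.26 with Hspa1a, 0.25 with Hspa1b, 0.18 with Dnajb1, 0.16 with Hsp90aa1 and 0.13 with Hspa8. The sets differed. In colon SEMFs the median r of Hspb1 with the other 5 was 0.38, and that among the other 5 was 0.37. In small intestine SEMFs it was 0.06 against 0.13, and in colon trophocytes 0.19 against 0.49. In LECs of the small intestine it was 0.31 against 0.26, and in BECs of the small intestine 0.16 against 0.12. Thinning to 2000 UMIs lowered the 2 values in colon SEMFs to 0.28 and 0.23. Hspb1 was also seen in fewer cells of some sets. It had a UMI in 12.5% of SEMFs, 11.1% of CD81- FBs and 29.6% of trophocytes of the small intestine, against 44.5%, 65.2% and 94.4% for Hspa1a. Thinning evens the depth of cells and not the level of genes, so the part of low Hspb1 counts in these r was not tested.

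**Figure D3:**
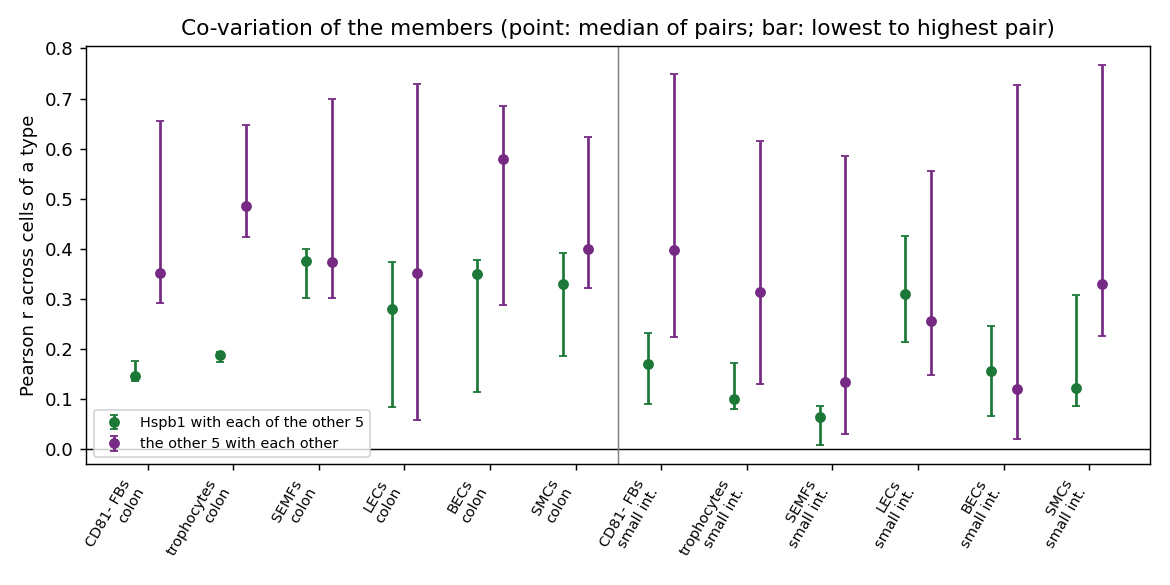
Pearson r across the cells of each annotated type and library: green, Hspb1 with each of the other 5 heat shock genes; purple, the other 5 with each other. Points are medians over pairs and bars run from the lowest to the highest pair; Hspb1 lies below the others in colon trophocytes (0.19 against 0.49) and level with them in colon SEMFs (0.38 against 0.37).

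Outside the 6 members, which were left out of this ranking, immediate early genes had the highest r with the inducible members. Across the 6 fibroblast sets, the 5 non-member genes with the highest median r with Hspa1a were Fos (0.52), Junb (0.51), Egr1 (0.47), Jun (0.42) and Fosb (0.41), all transcription factors of the immediate early response. The same 5 non-members led for Hspa1b and Hsp90aa1, with Egr1 the first of them at 0.52 and 0.45. Dnajb1 (Fos, 0.43) and Hspa8 (Fos, 0.34) had Ier2 in place of Jun. For Hspb1 the leading genes included Hsph1 (0.15), an HSP110 chaperone, Fos, Egr1 and Junb (0.13), all weak.

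Against the summed HSF1 targets outside the members, Hspb1 had a median r of 0.27 over the 12 sets (0.08 to 0.46). Hspa1a had 0.43 with these targets (0.13 to 0.61). Against the summed immediate early list, Hspb1 had a median r of 0.26 over the 12 sets, and Hspa1a 0.63. Hspb1 was tied to that list most in colon BECs (0.61, 53 cells), LECs of the small intestine (0.47) and colon SEMFs (0.47), and least in trophocytes (0.05) and SEMFs (0.06) of the small intestine. Hspa1a ranged from 0.75 in colon SMCs to -0.05 in small intestine BECs. In colon SEMFs the 5 genes most like Hspb1 were Fos, Fosb, Ier3, Ier2 and Junb (0.42 to 0.40), and the lowest r were those of the chemokine Cxcl12 (-0.36) and the laminin Lama2 (-0.36). In colon SMCs the Hedgehog-binding protein gene Hhip came first (0.48, 125 cells).

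Cells without a UMI of Hspa1a, Hspa1b or Dnajb1, here called cells without inducible UMIs, showed how much Hspb1 was seen apart from these genes. In small intestine BECs Hspb1 stood at 2202 CPM (1996 to 2423) in the 60 cells without a UMI of Hspa1a, Hspa1b or Dnajb1, and at 2530.5 CPM in the 464 cells with such UMIs. In small intestine LECs the values were 366 CPM (277 cells) and 1637 CPM (2221 cells). In small intestine SEMFs they were 26.6 (406 cells) and 32.7 (703 cells), and in small intestine SMCs 30.3 (36 cells, 5 UMIs of Hspb1) and 499 (432 cells). Small intestine CD81- FBs had 7.78 (576 cells) and 49.1 CPM, and trophocytes 12.5 (15 cells, 1 UMI of Hspb1) and 256. Of the small intestine types, BECs and SEMFs were closest to their level in the other cells, and the other types were well below it. After thinning, SEMFs had 21.3 and 40.5 CPM, and BECs 2125 and 2663. Split on Hspa1a and Hspa1b only, SEMFs had 28.2 and 32.1 CPM, and BECs 1909 and 2667. In the colon few cells had no UMI of Hspa1a, Hspa1b or Dnajb1: 89 CD81- FBs, 40 SEMFs, 24 LECs, 15 trophocytes, 2 SMCs and 1 BEC. Hspb1 stood at 184 CPM (127 to 257) in these SEMFs against 628 in the other 1065. It was at 63.3 against 166 CPM in colon CD81- FBs, 214 against 598 in LECs and 484 against 580 in trophocytes.

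Without inducible UMIs the Hspb1 ratio of colon to small intestine SEMFs was 2.79 on the log2 scale, from 34 and 57 UMIs, against 4.33 over all SEMFs. In the same way it was 3.02 (2.22 to 3.83) in CD81- FBs, from 29 and 28 UMIs, where all cells gave 1.98. In LECs it was -0.78 (-1.48 to -0.14), from 21 and 384 UMIs, where all cells gave -1.43. The small intestine CD81- FBs of this ratio stood at only 7.78 CPM (5.17 to 11.2), and the part of free RNA in that level was not tested. In trophocytes the ratio was 5.27 (2.71 to 10.6), from 40 UMIs and 1 UMI. In SMCs, with 2 and 5 UMIs, and in BECs, with 2 UMIs in the colon, it was 2.87 (-0.52 to 5.49) and -1.31 (-4.36 to 0.55), so counting error alone left the direction unsettled. In these cells Hspa1a, Hspa1b and Dnajb1 were undetected, which at this depth does not show that they were not transcribed. Other stress genes were not part of this choice of cells. Hsp90aa1 had 46 UMIs in these SEMFs of the colon and 350 in those of the small intestine.

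The same comparison was made over all cells by sorting them into 3 bins of equal size, over both libraries, by the summed CPM of Hspa1a, Hspa1b and Dnajb1, with limits at 1194 and 3888 CPM. In colon SEMFs Hspb1 stood at 191 CPM in the low bin, 433 in the middle bin and 1402 in the high bin. In small intestine SEMFs it stood at 27.1, 39.3 and 83.4 CPM, the last from 51 cells. Colon SEMFs had 28.3% of their cells in the low bin and small intestine SEMFs 82.3%. Within the low, middle and high bin the SEMF ratio was 2.82 (2.54 to 3.10), 3.46 (2.96 to 4.02) and 4.07 (3.44 to 4.78) on the log2 scale. The inducible level still differed inside a bin. In SEMFs it was 593 CPM in the colon and 230 in the small intestine in the low bin. It was 2388 and 2093 in the middle bin, and 6491 and 6336 in the high bin. In CD81- FBs of the low bin it was 583 and 293.

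The ratio kept its sign over the bins in every type but BECs. In CD81- FBs it was 2.42 in the low bin, 1.55 in the middle bin and 1.03 in the high bin, and in trophocytes 1.13, 1.70 and 1.10. In LECs it was -1.61, -1.54 and -1.02. In SMCs it was 2.13, 1.57 and 1.43. In BECs it was -0.82 in the middle bin and 0.24 in the high bin, from 20 and 25 colon cells, and the low bin held 8 colon cells. Small intestine BECs had 1961 CPM of Hspb1 in the low bin and 3664 in the high one, and the colon BECs of the high bin, 25 cells, had 4326. BECs of the low bin of the small intestine were thus above every fibroblast bin of either library. This did not hold for colon BECs, which had 793 CPM (518 to 1161) in the low bin, from 26 UMIs, and 1337 in the middle bin. Both were below the 1402 CPM of the high bin of colon SEMFs.

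**Figure D4:**
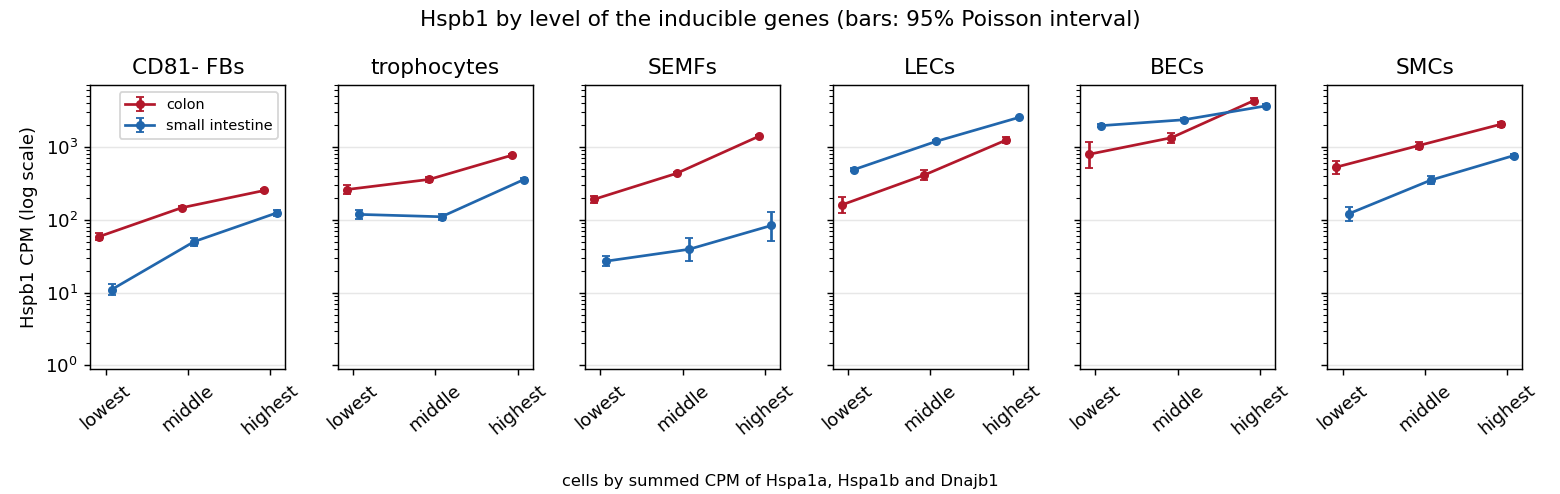
Hspb1 CPM (log scale) in cells of each type sorted into 3 bins by the summed level of Hspa1a, Hspa1b and Dnajb1, in the colon (red) and small intestine (blue), with 95% Poisson intervals. In SEMFs the colon runs from 191 to 1402 CPM and the small intestine from 27.1 to 83.4; the low colon BEC bin holds 8 cells.

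Most other chaperone lists had few genes past 1 on the log2 scale. Over all genes, 3.1% to 6.46% by type were higher in the colon by that size, and 8.24% to 19.6% in the small intestine. Next to those shares, colon counts of 0 or 1 in lists this short are not unusual. For the other HSP70 and HSP110 genes the colon counts were 2 of 12 tested in CD81- FBs, 2 of 11 in SEMFs and 2 of 8 in SMCs. They were 1 of 11 in trophocytes and in LECs and 0 of 6 in BECs. In LECs, 2 of these 11 were higher in the small intestine by at least 1, where 15.4% of all genes were. Of the 16 other J-domain proteins, partners of HSP70, 10 to 16 could be tested by type. Of these, 0 were higher in the colon by at least 1 in any of the 6 types, and 1 was higher in the small intestine, in LECs. The 10 chaperonins, which fold proteins in a closed ring, passed that size only in BECs (2, higher in the colon). Of the 3 heat shock factor genes (Hsf1, Hsf2 and the HSF-binding Hsbp1) 0 passed in any type, with 1 tested in BECs and SMCs. Of the 15 genes of the endoplasmic reticulum unfolded protein response tested in SEMFs, 3 were higher in the small intestine by at least 1, where 15.1% of all genes were, and 0 in the colon. Of the 17 HSF1 targets tested in SEMFs, 1 was higher in the colon by at least 1 and 1 in the small intestine, with a median of 0.37 against -0.33 for all genes.

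Pooled fibroblasts differed in make-up, with 875 trophocytes and 3631 CD81- FBs in the colon, and 1913 and 2823 in the small intestine. A pooled ratio therefore mixes the tissue with the share of each type. In the pool, Hsp90ab1, the constitutive HSP90, was higher in the colon by 0.58 (0.56 to 0.60) and Hspa4, of the HSP110 family, by 1.05 (0.99 to 1.11). Of 15 co-chaperones 2 were past 1 the other way, near the 9.47% of all genes: Ahsa1, which speeds up HSP90's ATPase, was at -1.30 (-1.42 to -1.18) and the HSP90-binding immunophilin Fkbp5 at -1.34 (-1.45 to -1.24). The endoplasmic reticulum chaperones Hspa5 (BiP) and Hsp90b1 (GRP94) were at -0.63 and -0.57. Of the 4 other small heat shock proteins tested, 1 was past 1 with the colon higher (background 6.88%), with a list median of 0.48. Hspb6 was at 1.25 (0.80 to 1.72), Hspb2 at 0.90 (0.62 to 1.19), Cryab at 0.07 and Hspb8 at -0.49, and Hspb6 and Hspb2 were below 10 CPM in both libraries. By type, 2 of the 4 tested were past 1 with the colon higher in CD81- FBs (background 6.46%), and 1 of 2 in SEMFs (5.36%). In trophocytes 0 of 3 were, in LECs 0 of 2 and in SMCs 0 of 2, and in BECs none could be tested. Hspb8 was led by trophocytes in both libraries, at 150 CPM in the colon and 122 in the small intestine, an order unlike that of Hspb1. Its pooled ratio thus ran the other way to its trophocyte levels. Hsph1 was led by LECs of the small intestine (883 CPM), as Hspa1b was.

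Immediate early genes differed by type. In SEMFs, 11 of 20 tested were higher in the colon by at least 1 (background 5.36%, median 1.32), and their summed level was 9736 CPM against 4195. In LECs, 10 of 20 were higher in the small intestine by that size (background 15.4%), with sums of 7255 and 15888 CPM. In BECs 10 of 19 were (background 19.6%), with sums of 22142 and 46247 CPM. Colon SEMFs thus had more, and colon LECs less, of both Hspb1 and the list. In CD81- FBs the list also leaned to the colon, with sums of 10418 and 9236 CPM, as Hspb1 did (1.98). There 3 of 21 genes of the list were higher in the colon by at least 1 (background 6.46%). BECs, trophocytes and SMCs did not pair them in this way. In BECs the list was lower in the colon and Hspb1 stood at 0.02. In trophocytes the list stood at 25015 CPM in the colon and 27517 in the small intestine, and in SMCs at 14582 and 14689, while Hspb1 was higher in the colon by 1.18 and 1.54. Their part in the Hspb1 ratios was not tested. The contractile list had a median r of 0.01 with Hspb1 over the 12 sets, with a range from -0.16 to 0.40.

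Over the 12 type and library levels, the non-member genes whose pattern was most like that of a member were named by Pearson's r of log2(CPM + 10), a description over 12 points of 2 libraries. For Hspb1 they included the plasma membrane calcium pump Atp2b4 (0.89), the amino acid transporter Slc38a2 (0.87), the mitochondrial carrier Slc25a25 and the kinase Sik1 (0.86). For Dnajb1 they were Egr1 (0.97), Nufip2, Fos, Ier2 and Atf3 (0.92), mostly immediate early genes. For Hspa8 the first non-member was Cd81 (0.94), for Hspa1b Hmgn3 (0.91), for Hsp90aa1 Hes1 (0.91) and for Hspa1a Tpt1 (0.82). Among the members, the patterns of Hspb1 and the others had r between 0.47 (Hsp90aa1) and 0.67 (Hspa1b), and Hspa1a and Hsp90aa1 had the highest, 0.86.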

How the data were processed

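Raw UMI counts by gene and cell, values normalized by the authors on a natural log scale, and cell type labels were deposited per library. Checked over all cells, the deposited natural log values equalled ln(1 + UMIs x 10000 / UMIs of the cell). Per the submitters' processing notes, Cell Ranger 7.1.0, Seurat 4 and build mm10 were used; counting settings and cell filters are not given in the sources used here. Doublets were not removed in the main values, and the colon's 3 endothelial labels were pooled as BECs.

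UMI counts were summed per library and type and given as CPM with exact Poisson intervals, shares with Clopper-Pearson intervals, and ratios with exact conditional binomial intervals, all at 95%, covering counting error only. The interval code was tested on simulated counts. With 1 library per tissue no p-value was computed. "Past the fold" means at least 1 on the log2 scale among genes whose UMIs of both libraries sum to 100 or more. Correlations used the natural log values. Genes in the text follow fixed rules: the members, the 2 highest and 2 lowest of each list in pooled fibroblasts, list genes at least 2-fold above the next type, and the 5 genes most like a member. The members were left out of the ranking of genes most like a member. The text gives only some of the genes these rules name, and a gene among them is not reported here. The partners of Hspb1 in single sets, the 3 bins and the Dcn filter were added after seeing the data. Pdpn was left out of the endothelial markers used for free RNA. The members and lists were chosen with earlier results of these data known. Alternatives changed totals, averaging, cells, depth and correlation measure. Python 3.11.15, numpy 2.4.6 and scipy 1.17.1 were used.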

Additional observations from a re-analysis of the deposited data

Results flagged for a closer look

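Hspb1 was higher in the colon by at least 1 on the log2 scale in 4 types (4.33 in SEMFs, 1.98 in CD81- FBs, 1.54 in SMCs and 1.18 in trophocytes) and higher in the small intestine by that size in LECs (-1.43). The intervals lay on opposite sides of 0, but the difference between the types was not tested. Dnajb1 was at 1.56 in SEMFs and at -2.47 in LECs in the same way, and that difference was not tested either.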

How the results depend on the processing

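Of the 36 ratios of colon to small intestine, 29 kept their direction under every alternative run. The other 7 did not: Hspb1 in BECs, Hspa1a and Hsp90aa1 in LECs, Hspa1b in trophocytes, Hspa8 in trophocytes and SEMFs, and Dnajb1 in SMCs, all of them under 1 in size. The count of ratios of at least 1 with the colon higher was 13 to 15 and with the small intestine higher 2 to 3, over the alternatives that give all 36 ratios on the log2 scale. In cells without inducible UMIs, Hsp90aa1 was under 1 in CD81- FBs, trophocytes and SEMFs (0.53, 0.14 and 0.61). No paired analysis was possible because there is 1 library per tissue and no test. The Hspb1 ratio in SEMFs, 4.33, was 4.10 with colon cells of Y-linked UMIs alone, 4.66 relative to the median gene, 2.79 in cells without inducible UMIs, and 1.15 as a difference of mean natural log values. By bin of the inducible level it was 2.82, 3.46 and 4.07, and thinned 3.13, 2.81 and 4.02. Hspb1 in colon BECs exceeded the next type by 0.88 on the log2 scale, and by 1.12 with the mean of each cell's CPM, 1.19 without the cells with the most UMIs, 1.25 with colon cells of Y-linked UMIs alone and 1.03 with those of Xist alone. As differences of mean natural log values it was 0.70 in the colon and 0.96 in the small intestine. The share of SEMFs with Hspb1 UMIs was 71.1% and 12.5%, thinned 45.3% and 4.91%, and with at least 2 UMIs 50% and 2.89%. The median r of Hspa1a with Hspa1b fell from 0.65 to 0.54 after thinning. The cause of these shifts was not tested, except that thinning leaves fewer UMIs by construction. The highest type of a member and library was that of the main values in 9 to 12 of 12 cases, and in 4 of 6 in cells without inducible UMIs, where only Hspb1, Hsp90aa1 and Hspa8 can be ranked. Few colon cells lacked inducible UMIs, which limits the values given for them, and intervals do not cover differences between animals.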

Other observations

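Types too small to compare were counted too. The 8 colon pericytes had 2336 CPM of Hspb1 (1855 to 2903), 6431 CPM of Hspa1a and 1182 CPM of Dnajb1, all 3 from summed UMIs of these cells. Of the colon BECs, the 45 capillary cells had 2461 CPM of Hspb1, the 4 arterial cells 1351 CPM (25 UMIs) and the 4 venous cells 4083 CPM (98 UMIs). The 24 proliferating cells of the small intestine had 296 CPM of Hspb1 (228 to 377) and the 4 of the colon 587 CPM (18 UMIs).

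Metallothioneins, which bind metals, were led by trophocytes in both libraries as Dnajb1 was: Mt1 stood at 1037 CPM in colon trophocytes and 713 in those of the small intestine, 3.86-fold and 5.39-fold above the next type. The mechanosensitive and shear-responsive factor Klf2 was led by BECs as Hspb1 was, at 1817 CPM (colon, 3.06-fold above trophocytes) and 4445 CPM (small intestine, 4.66-fold).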
